A study of Mus musculus with 2 samples.

Results

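The genes of 10 neuropeptide precursors were followed in the hindbrain of mouse embryos: Npy, Sst, Penk, Tac1, Cartpt, Gal, Adcyap1, Nts, Pdyn and Calca. They were chosen by name, each matched 1 row of the gene tables, and they are 10 of the 55536 genes quantified. The tissue was hindbrain of strain B6NCrl at embryonic day 12.5, healthy and mixed in sex, with no treatment or altered allele named in the labels. It was sampled as 1 group of 2 biological replicates, pool 1 from 120 embryos and pool 2 from 88 embryos. The series therefore holds no second condition, and the spread between the pools is the only replicate error. Library totals were 32547454 and 30559015 expected counts, the estimated reads per library. Because each pool combines many embryos, differences between single animals cannot be seen.

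Neuropeptides are made as long precursor proteins that enter the secretory pathway, are cut at pairs of basic residues by prohormone convertases, trimmed by carboxypeptidase E and often amidated at the carboxyl end before storage in dense core vesicles. Released peptides act on G protein-coupled receptors and are broken down by peptidases on the cell surface. In the brainstem they are used by autonomic, respiratory and sensory circuits, and hindbrain neurons are still being generated at the stage sampled here. The precursors fall into families by their peptides: opioids (Penk, Pdyn), tachykinins (Tac1), the calcitonin gene family (Calca), the secretin-like peptide PACAP (Adcyap1), and the precursors of somatostatin (Sst), neuropeptide Y (Npy), CART (Cartpt), galanin (Gal) and neurotensin (Nts).

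The opioid precursors carry repeated peptide units, and these units are shown because they are what the Penk and Pdyn messages described below encode. Coding sequence was searched in frame, on the coding strand alone, for the opioid core motif TANGGNGGNTTN, with overlaps allowed, and the codon that follows was read. The motif is the Tyr-Gly-Gly-Phe core translated back by the standard genetic code with N at each variable base, so it also admits some other residues. The complete Penk coding transcript held 7 sites and that of Pdyn held 3, whereas 89 of 21794 protein-coding genes (0.408%) held at least 1. A total of 4 genes held 3 or more, namely Penk, Pdyn and the keratin-associated genes Krtap19-2 and Krtap19-4. Sequences are mouse GENCODE M21 transcripts on mm10, 5′ to 3′, with the core motif and the next codon in capitals and a pair of flanking codons on each side in lower case.
Penk site 1 at chr4:4134328-4134354, minus strand: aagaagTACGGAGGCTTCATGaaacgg
Penk site 2 at chr4:4134307-4134333, minus strand: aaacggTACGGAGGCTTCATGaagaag
Penk site 3 at chr4:4134220-4134246, minus strand: aagaggTATGGCGGCTTCATGaagaag
Penk site 4 at chr4:4134067-4134093, minus strand: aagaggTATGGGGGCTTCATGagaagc
Penk site 5 at chr4:4133995-4134021, minus strand: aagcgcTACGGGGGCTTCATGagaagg
Penk site 6 at chr4:4133935-4133961, minus strand: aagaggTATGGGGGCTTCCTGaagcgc
Penk site 7 at chr4:4133842-4133868, minus strand: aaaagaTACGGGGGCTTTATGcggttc
Pdyn site 1 at chr2:129688232-129688258, minus strand: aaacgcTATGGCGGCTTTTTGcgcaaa
Pdyn site 2 at chr2:129688124-129688150, minus strand: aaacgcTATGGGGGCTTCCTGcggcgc
Pdyn site 3 at chr2:129688067-129688093, minus strand: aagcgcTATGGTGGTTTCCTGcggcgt
In Penk the codon after the core was ATG, as in Met-enkephalin, at every site except site 6, which has the CTG of Leu-enkephalin. In Pdyn all 3 sites ended in a leucine codon.

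All 10 precursors reached 1 TPM (the deposited transcript level, scaled for transcript length and library size) in both pools. The same was true of 29% of all genes and of 61.8% of protein-coding genes. The members covered a 93.5-fold range of mean level, from Penk to Nts. Their median was 14.7 TPM, against 5.46 TPM over all protein-coding genes and 21.8 TPM over the protein-coding genes that reached 1 TPM in both pools. In sum they came to 251 TPM in pool 1 and 293 TPM in pool 2, of which Penk, Sst and Npy made up 73.0% and 74.9%. In these bulk pools, more cells that express a gene cannot be told apart from more RNA per cell.

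**Figure D1:**
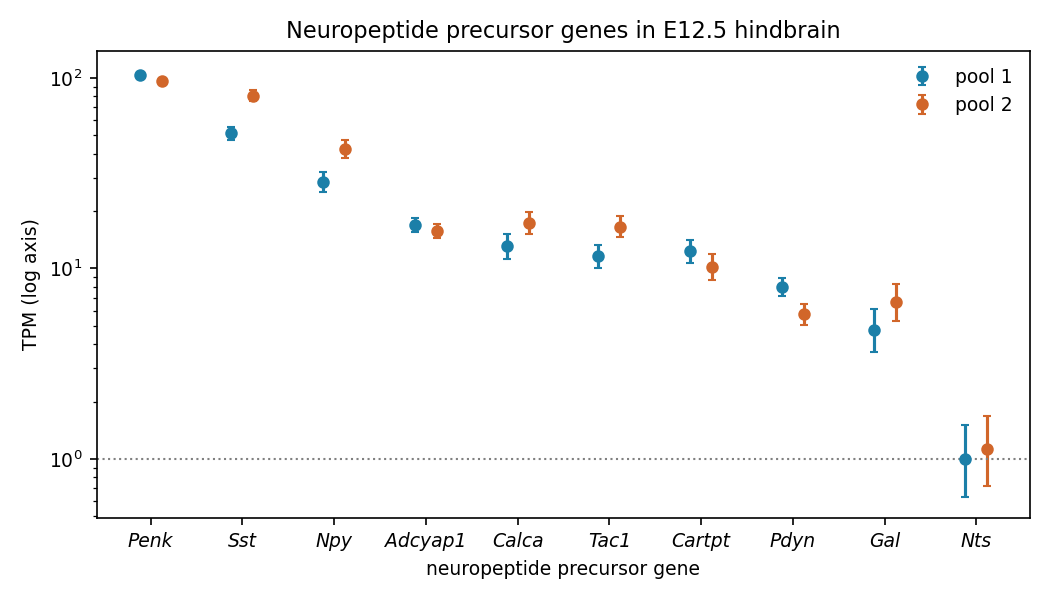
Level of each precursor in TPM on a log axis, ordered by the mean, with pool 1 and pool 2 as separate points and bars giving the exact 95% Poisson counting interval. Penk is near 100 TPM in both pools, Sst and Npy are higher in pool 2, and Nts sits at the dotted line of 1 TPM.

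Penk, the proenkephalin gene, had the highest level of the 10, at 103 and 95.9 TPM in pools 1 and 2 (99.6 ± 5.25 TPM, SD, n = 2). It lies on chromosome 4 (positions 4133531 to 4138819, minus strand, mm10) and rested on 2433 and 2014 expected counts. It ranked 1642 among 22028 protein-coding genes by mean TPM. The annotated span of Penk, introns included, overlaps by 499 bases with that of the noncoding gene A830012C17Rik on the opposite strand. How much of this stretch is exon in both genes was not measured. A830012C17Rik had 30.1 and 22.0 expected counts. The labels and files used here do not say if strand entered the counting, so reads from the shared stretch could belong to either gene.

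Pdyn, the prodynorphin gene, which encodes the other opioid precursor of the set, was at 7.99 and 5.77 TPM in pools 1 and 2 (6.88 ± 1.57 TPM, n = 2). It lies on chromosome 2 (positions 129686565 to 129699844, minus strand). The opioid precursors thus differed in level by more than the spread between the pools, with Penk above Pdyn in each of them.

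Sst, the precursor of somatostatin, an inhibitory peptide of many interneurons and of transient embryonic neurons, was second at 51.4 and 80.8 TPM in pools 1 and 2 (66.1 ± 20.7 TPM, n = 2). It is on chromosome 16 (positions 23889573 to 23890958, minus strand). Npy, which encodes neuropeptide Y, a peptide that accompanies noradrenaline in brainstem and sympathetic neurons, followed at 28.4 and 42.5 TPM (35.4 ± 9.93 TPM). It is on chromosome 6 (positions 49822710 to 49829507, plus strand). Both were higher in pool 2, and the ranges of Penk, Sst and Npy over the pools did not overlap with each other. With the older annotation, GENCODE M4, Sst stood at 67.05 and 104.5 TPM and Penk at 108.4 and 100.6 TPM, so that Sst was the higher of the pair in pool 2. The M4 gene model of Sst has an effective length of 500 bases against 622 in M21, with 636 against 639 expected counts in pool 1.

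A middle group of 4 genes lay between 10 and 18 TPM in both pools. Adcyap1, the gene of PACAP, a peptide that raises cyclic AMP in neural progenitors and neurons, was at 16.9 and 15.8 TPM (16.3 ± 0.827 TPM, n = 2) and is on chromosome 17 (positions 93199017 to 93206537, plus strand). Calca, which encodes calcitonin and the calcitonin gene-related peptide CGRP and is expressed by cranial motor and sensory neurons, was at 13.1 and 17.4 TPM (15.2 ± 3.07 TPM) and is on chromosome 7 (positions 114631478 to 114636357, minus strand). The Adcyap1 and Calca ranges overlapped, with Adcyap1 higher in pool 1 and Calca higher in pool 2.
Tac1, the precursor of substance P and neurokinin A, peptides of sensory and respiratory neurons, was at 11.6 and 16.6 TPM (14.1 ± 3.54 TPM) and is on chromosome 6 (positions 7554879 to 7565834, plus strand). Cartpt, the gene of the CART peptides, was at 12.3 and 10.2 TPM (11.3 ± 1.46 TPM) and is on chromosome 13 (positions 99898489 to 99901091, minus strand). Neighbours within this group could not be ordered beyond the spread between the pools. With M4 the means became 14.9 TPM for Tac1, 13.2 TPM for Adcyap1, 12.2 TPM for Calca and 11.4 TPM for Cartpt, which is another order.

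The lowest 2 genes were Gal and Nts. Gal, the galanin precursor, was at 4.77 and 6.69 TPM (5.73 ± 1.36 TPM, n = 2), overlapping with Pdyn, and is on chromosome 19 (positions 3409915 to 3414544, minus strand). Nts, the precursor of neurotensin and neuromedin N, was at 1.00 and 1.13 TPM (1.06 ± 0.0919 TPM) and is on chromosome 10 (positions 102481756 to 102490486, minus strand). Nts rested on 23 and 24 expected counts, and its counting interval began at 0.634 TPM in pool 1 and ran from 0.724 to 1.68 TPM in pool 2, so its place at or above 1 TPM was not resolved at this depth. Of the 9 pairs of neighbours in the order of means, 4 overlapped over the pools: Adcyap1 with Calca, Calca with Tac1, Tac1 with Cartpt, and Pdyn with Gal.

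The 10 genes were set beside 46 other neuropeptide precursors. Of all 56 listed precursors, 22 reached 1 TPM in both pools, and 6 of the 10 described here stood above all of the 46. That rank holds for these lists alone: Chga, Chgb, Scg2 and Pcsk1n were kept in other lists and are not among the 46. Nts, the lowest of the 10, stood below several of the others, among them Nppc, Pnoc, Nmb and Pomc. The highest of the other list were Nppc, the precursor of C-type natriuretic peptide (11.8 ± 0.643 TPM, n = 2), Pnoc, the precursor of the opioid-like peptide nociceptin (10.3 ± 0.587 TPM), Nmb, the neuromedin B gene (5.19 ± 1.17 TPM), and Pomc, the precursor of melanocortins and beta-endorphin (4.42 ± 0.757 TPM). In total 12 of 46 reached 1 TPM in both pools and 31 were under it in both. Cck, abundant in the adult brain, was at 0.680 and 0.920 TPM, and Vip at 0.520 and 0.800 TPM. The hypothalamic genes Hcrt and Avp were among 9 precursors with no count in either pool. For Hcrt a count of 0 allows up to 3 counts, or 0.335 and 0.363 TPM.

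**Figure D2:**
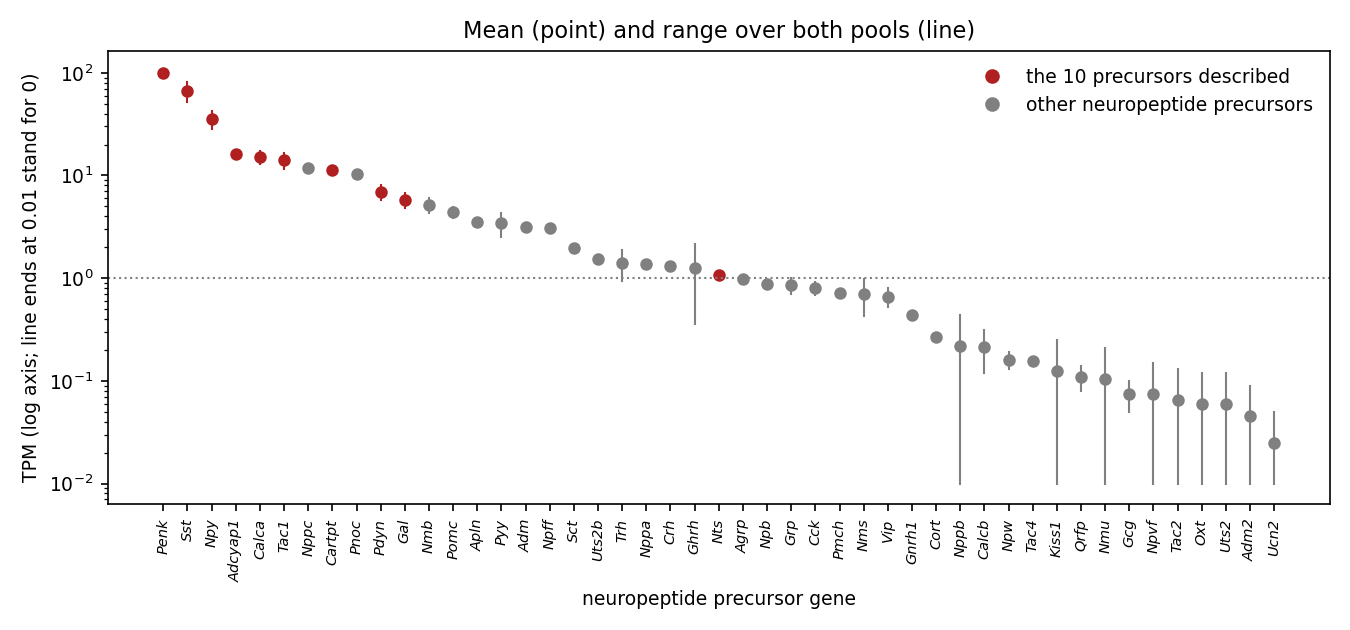
Mean TPM on a log axis of every listed neuropeptide precursor gene with a count in at least 1 pool (47 of 56), ordered by level. Points are means and lines span the pools, red for the 10 genes described and grey for the others. Nppc and Pnoc are the highest grey points and lie among the middle red ones.

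The pools were then compared for each precursor. Sst, Npy, Gal, Tac1 and Calca had a higher share of the reads in pool 2, and Penk, Cartpt and Pdyn in pool 1. On the log2 scale of TMM-scaled counts, which sets the libraries to a common composition, pool 2 over pool 1 was 0.64 for Sst (95% counting interval 0.49 to 0.79), 0.57 for Npy (0.34 to 0.80), 0.51 for Gal (0.02 to 1.01), 0.48 for Tac1 (0.20 to 0.76) and 0.46 for Calca (0.16 to 0.75). In the other direction it was -0.46 for Pdyn (-0.70 to -0.23), -0.31 for Cartpt (-0.61 to -0.01) and -0.17 for Penk (-0.25 to -0.08). For Adcyap1 it was 0.04 (-0.13 to 0.21), and for Nts 0.16 (-0.72 to 1.06). The interval excluded 0 for 8 genes, but such intervals hold counting error only and no difference between pools of the same tissue.

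None of the 9 precursors with 50 or more mean counts differed 2-fold between the pools, and 0.994% of the 14989 genes with that depth did (0.58% higher in pool 2 and 0.414% higher in pool 1). At 1.5-fold 1 precursor, Sst, was past the limit, 1.56-fold higher in pool 2, against 3.42% of those genes in either direction, 1.79% in that direction and 1.63% in the other. The median absolute log2 ratio was 0.46 over the 9 precursors and 0.10 over all 14989 genes. The share of those genes that lay as far apart as the precursor or farther was 2.76% for Sst, 3.66% for Npy, 4.70% for Gal, 5.39% for Tac1, 5.68% for Pdyn, 5.91% for Calca, 12.7% for Cartpt, 30.2% for Penk and 75.1% for Adcyap1. The 14989 genes were not matched to the precursors in depth, and counting error widens ratios at low counts. Mean counts were 72 for Gal, 190 for Cartpt, 199 for Calca, 219 for Tac1, 302 for Pdyn and 315 for Npy. The medians and shares above therefore do not set the precursors beside genes of like depth. The pools are the replicates of 1 group, so no test between them was made.

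**Figure D3:**
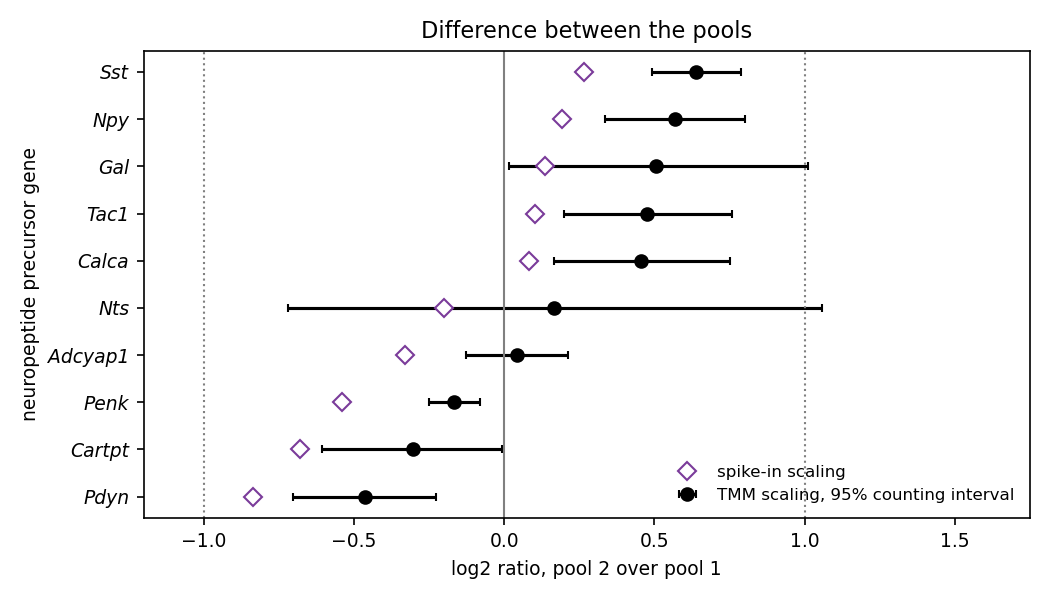
Log2 ratio of pool 2 over pool 1 for each precursor. Black points are TMM-scaled with 95% counting intervals, open diamonds are scaled to the spike-in RNAs, and dotted lines mark a 2-fold difference. Sst has the highest ratio at 0.64 and Pdyn the lowest at -0.46, and spike-in scaling moves every gene to the left.

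Scaling to the added spike-in RNAs moved the median gene by -0.37 on the log2 scale. On that scale Sst, Npy, Gal, Tac1 and Calca remained above 0 (0.27, 0.19, 0.13, 0.10 and 0.08), Adcyap1 and Nts turned to -0.33 and -0.20, and Pdyn was at -0.84. This rescaling shifts every gene by nearly the same amount, so it could not reorder the precursors apart from the small effect of the prior count. With the deposited TPM and no further scaling, Adcyap1 was also lower in pool 2 (-0.10), and its estimated effective length was 1707 bases in pool 1 and 1904 in pool 2.

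Markers of the tissue and of neighbouring tissues moved between the same pools, and their part in the differences above was not tested. All 8 hindbrain markers reached 1 TPM in both pools, with sums of 187 and 238 TPM in pools 1 and 2 and a median log2 ratio of 0.36. No spinal cord marker of 8 reached 1 TPM (sums 0.610 and 0.710 TPM), and 3 of 10 forebrain markers did (sums 29.96 and 32.4 TPM). The spinal cord list held only Hox genes of groups 8 to 10, so any cord that does not express them was not assessed. Of the cranial sensory ganglion markers, genes of cells that also make Tac1 and Calca peptides, 9 of 10 measured reached 1 TPM, the sums were 252 and 273 TPM, and the median log2 ratio was 0.29. Skeletal muscle markers summed to 46.3 and 232 TPM (9 of 10 at 1 TPM, median 2.27), surface epithelium markers to 112 and 82.4 TPM (6 of 6, median -0.48) and erythroid genes to 19324 and 15342 TPM (7 of 7, median -0.33). Over 14 general neuron markers the median was 0.10, with sums of 3775 and 3948 TPM. No marker was at 0 in both pools except Hoxc10 and Hoxd10 of the spinal cord list.

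Several of the precursors are spliced into messages for different peptides, and the transcript tables give the estimated share of each. Npy, Sst and Nts each had 1 annotated transcript. In Pdyn the complete coding transcript held 98.6% of the gene's TPM in pool 1 and 100% in pool 2. The complete Penk transcript, with all 7 opioid sites, took 76.5% and 71.3%, and the rest went to a model whose annotated coding end is incomplete.

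Tac1 is known for alternative exons that decide whether neurokinin A is made beside substance P, and the alternative exons and the tachykinin sites are shown for that reason. The tachykinin motif TTNNNNGGNNTNATGGGN, derived and searched in the same way from the core Phe-X-Gly-Leu-Met-Gly, occurred in 25 of 21794 protein-coding genes (0.115%), and Tac1 was the only gene among them with 2 or more sites in 1 transcript. The first site (substance P) is in an exon shared by the 3 full-length messages, and the second (neurokinin A) is in a 54-base exon. In the site lines the motif is in capitals, and in the exon lines the alternative exon is in capitals and its neighbours are in lower case.
Tac1 site 1 at chr6:7556744-7556773, plus strand: cagcagTTCTTTGGATTAATGGGCaagcgg
Tac1 site 2 at chr6:7559110-7559139, plus strand: gattccTTTGTTGGACTAATGGGCaaaaga
Tac1 exon of 45 bases at chr6:7557216-7557260, plus strand: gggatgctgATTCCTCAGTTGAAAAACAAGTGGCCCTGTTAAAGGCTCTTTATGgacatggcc
Tac1 exon of 54 bases at chr6:7559099-7559152, plus strand: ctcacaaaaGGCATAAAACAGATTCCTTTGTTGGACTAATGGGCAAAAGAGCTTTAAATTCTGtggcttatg

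Messages with the 54-base exon, and so with both tachykinin sites, made up 68.1% of Tac1 TPM in pool 1 and 64.6% in pool 2 (66.3% ± 2.53, SD, n = 2). The gamma form, which lacks the 45-base exon, held 41.8% and 42.3%. The alpha form, which lacks the 54-base exon, held 31.9% and 34.4%. The beta form, with both exons, held 26.3% and 22.3%. The full-length forms were thus all present, and their order by share was the same in both pools. That order rests on length scaling of 57.2 to 92.5 expected counts per form: by counts the gamma form had 29.96% and 30.9%, the beta form led in pool 1 (36.1%) and the alpha form in pool 2 (37.4%).

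Calca makes calcitonin when the fourth exon is kept and CGRP when it is skipped in favour of the exons downstream, so the junctions of both messages are shown. Lower case marks the end of the third exon, which both messages share, and capitals mark the first 30 bases of the exon joined to it.
Calca CGRP junction, capitals at chr7:114632570-114632599, minus strand: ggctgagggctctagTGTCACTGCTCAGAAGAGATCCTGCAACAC
Calca calcitonin junction, capitals at chr7:114633756-114633785, minus strand: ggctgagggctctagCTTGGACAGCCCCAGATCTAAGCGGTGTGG
The complete CGRP message stood at 5.32 and 7.79 TPM, and the 2 calcitonin messages together at 1.97 and 3.34 TPM. CGRP messages were 2.70-fold and 2.33-fold higher than calcitonin messages in the 2 pools. All transcripts with the CGRP exons, including the short intron-retaining model, took 79.6% and 71.5% of Calca TPM (75.5% ± 5.70, SD, n = 2), and those with the calcitonin exon took 15.1% and 19.2% (17.1% ± 2.91). Both splice outcomes were therefore measured, with the CGRP side the larger in each pool. The calcitonin share rested on 27.8 and 44.96 expected counts. The 4 least abundant Calca models each had under 10 expected counts and were at 0 in 1 pool, so single shares of these models were not resolved at this depth.

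Cartpt is known to give a long and a short precursor that differ by a 13-codon stretch at the start of the second coding exon, and that stretch is shown in capitals.
Cartpt stretch at chr13:99900041-99900079, minus strand: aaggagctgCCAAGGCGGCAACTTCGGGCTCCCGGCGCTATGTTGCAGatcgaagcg
The form with these 39 bases held 62.1% of Cartpt TPM in pool 1 and 66.3% in pool 2 (64.2% ± 3.01, n = 2), and the form without them held 37.9% and 33.7%. By expected counts the 2 forms were closer, at 53.5% and 46.5% on average.

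Of the 2 Gal transcripts, which share their inner exons and differ in the extent of the first and last, the one of 788 bases held 66.9% and 79.7% and the one of 672 bases held 33.1% and 20.3%, on 14.4 to 67.6 expected counts. Their annotated coding sequences also differ, at 372 bases in the longer transcript and 423 in the shorter. The last exon holds 68 and 119 of these coding bases. In Adcyap1 the largest share of TPM went to the intron-retaining model, with 47.8% and 42.7% (45.3% ± 3.64, n = 2). The complete coding transcripts together held 22.3% and 31.7% of TPM. By expected counts the intron-retaining model had 53.6% and 42.9% and the complete coding transcripts 42.6% and 54.2%, so that the order of the classes turned in pool 2. Part of the Adcyap1 signal was thus assigned to models with no complete coding sequence, and the coding transcripts came to 3.78 and 4.99 TPM, higher in pool 2, where the gene total was lower. The short incomplete models held 29.8% and 25.6% of TPM but 3.84% and 2.95% of expected counts.

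**Figure D4:**
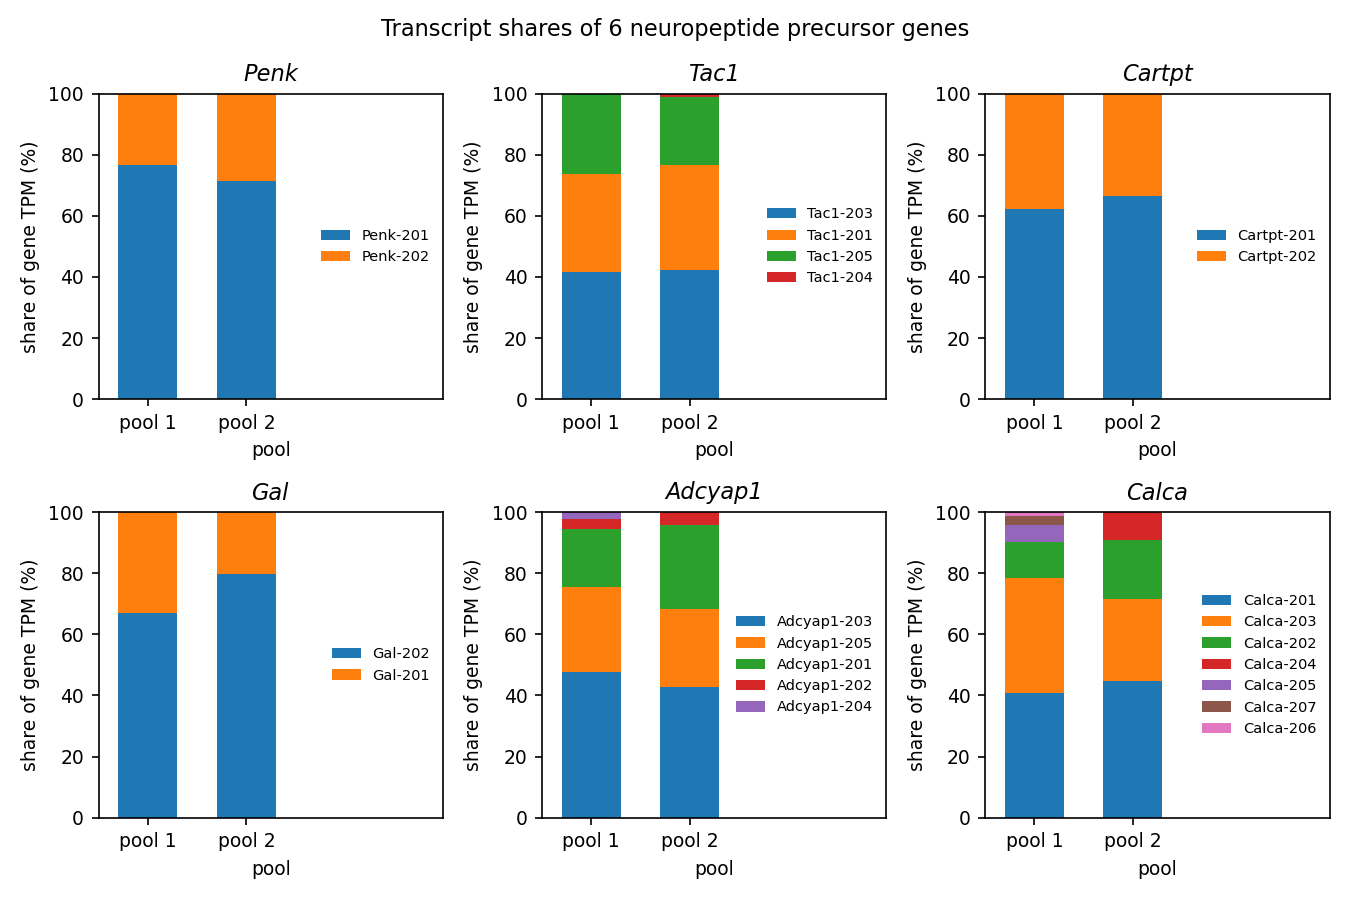
Share of each gene's TPM taken by its annotated transcripts in pool 1 and pool 2, as stacked bars from 0 to 100%, for Penk, Tac1, Cartpt, Gal, Adcyap1 and Calca. The leading transcript by TPM of each of these genes is the same in both pools and holds between 40.7% and 79.7%.

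Receptors of the peptides were measured in the same tissue. The list held receptors for 9 of the 10 precursors, Cartpt being the exception, and 13 of the 29 receptor genes reached 1 TPM in both pools, at a list median of 0.990 TPM. The receptor genes above 10 TPM in both pools were Adcyap1r1, Sstr2, Sort1, Calcrl and Ramp2. Adcyap1r1, the main PACAP receptor, was at 34.5 and 28.1 TPM (31.3 ± 4.50 TPM, n = 2), above its ligand gene in both pools. Vipr1 and Vipr2, which PACAP shares with VIP, were at 0.340 and 0.510 TPM and at 0.890 and 1.38 TPM. Sstr2 was at 29.3 and 27.1 TPM (28.2 ± 1.58 TPM), against 1.25 ± 0.163 TPM for Sstr1 and 1.32 ± 0.00707 TPM for Sstr4. Sstr2 was therefore the main somatostatin receptor message here, while Sstr3 and Sstr5 were under 0.5 TPM in both pools.

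Calcrl, the receptor subunit that pairs with Ramp1 for CGRP and with Ramp2 or Ramp3 for adrenomedullin, was at 11.9 and 14.1 TPM (13.0 ± 1.56 TPM, n = 2). Its partners were unequal: Ramp2 was at 47.1 ± 1.44 TPM and Ramp3 at 5.90 ± 2.12 TPM, whereas Ramp1 was at 0.890 and 0.700 TPM. Calcr, the calcitonin receptor, was at 1.65 and 1.82 TPM. Calcrl and Ramp2 are also genes of endothelium, and which cells carried them was not tested. Sort1, the sorting receptor sortilin that also binds neurotensin, was at 27.0 ± 0.141 TPM, while the G protein-coupled receptors Ntsr1 and Ntsr2 were under 0.5 TPM in both pools.

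Opioid receptors stood low beside the opioid precursors. Oprm1, the mu receptor, was at 0.830 and 0.430 TPM and Oprd1, the delta receptor, at 0.0600 and 0.140 TPM, while Penk was near 100 TPM. Oprk1, the kappa receptor of dynorphin, was at 1.03 TPM in pool 1 and under 1 TPM in pool 2. Of the opioid precursor messages, Penk was thus abundant and Pdyn lower, at 7.99 and 5.77 TPM. None of the 3 receptor messages reached 1 TPM in both pools. Of the remaining receptors, Npy1r was at 1.83 and 2.52 TPM, Tacr1, the substance P receptor, at 2.16 and 2.09 TPM, Tacr3 at 1.48 and 1.68 TPM and Galr1 at 1.20 and 1.92 TPM. Tacr2, the neurokinin A receptor, was at 0 in both libraries, which allows up to 0.0696 and 0.0755 TPM.

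**Figure D5:**
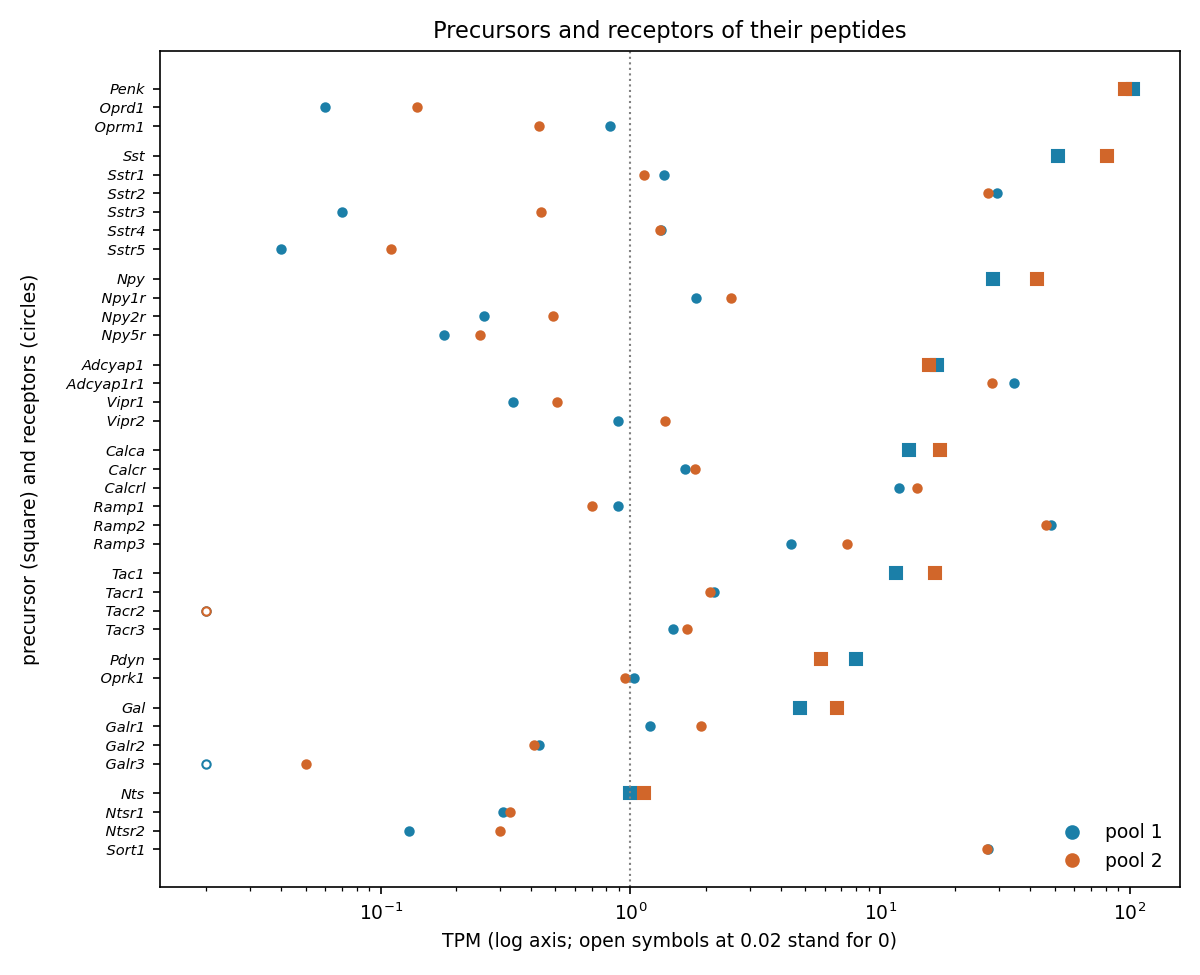
TPM on a log axis of 9 precursors (squares) and of the receptors of their peptides (circles) in pool 1 and pool 2, with open symbols at the left edge for a value of 0. Adcyap1r1, Sstr2, Sort1, Calcrl and Ramp2 lie above 10 TPM, while the opioid receptors lie near or under 1 TPM.

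Most genes for making, storing and degrading peptides reached 1 TPM. Of 11 prohormone processing genes, 10 reached 1 TPM in both pools, with carboxypeptidase E, Cpe, at 309 ± 14.0 TPM (n = 2), the convertase inhibitor gene Pcsk1n at 82.0 ± 5.68 TPM, Scg5, a chaperone of the convertase Pcsk2, at 59.9 ± 3.13 TPM and the amidating enzyme Pam at 23.9 ± 2.26 TPM. The neuroendocrine convertases themselves were lower, Pcsk2 at 6.68 and 7.77 TPM and Pcsk1 at 0.780 and 1.41 TPM. All 9 dense core vesicle genes reached 1 TPM, led by the granins Scg3 (68.7 ± 5.13 TPM), Chgb (42.4 ± 1.56 TPM), Chga (38.6 ± 3.02 TPM) and Scg2 (19.2 ± 0.481 TPM). Of 11 peptidases, 10 did, with the aminopeptidase Npepps at 97.0 ± 6.75 TPM, Thop1 at 44.5 ± 0.0424 TPM, Ide at 34.5 ± 0.544 TPM and neprilysin, Mme, which cleaves enkephalins, at 28.2 ± 0.559 TPM. The peptidase list was not limited to enzymes of the cell surface, and these levels do not show which of them meet released peptides. The median log2 ratio between the pools was 0.08 for the processing list, 0.02 for the vesicle list and 0.00 for the peptidase list, and no gene of these lists with 50 or more mean counts differed 2-fold.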

How the data were processed

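PolyA-plus RNA-seq libraries were made from 10 ng of RNA per pool by tagmentation, with ERCC spike-ins, per the labels' protocols. The files are on mm10 with GENCODE M21 and M4, per the deposited read-me files; the quantifier was not given in the sources used here. Expected counts, which need not be whole, were deposited by the authors. The deposited TPM values are scaled over all entries, with the spike-ins among them, and every TPM is lower where spike-ins take more reads. The deposited isoform percent served as a check of shares computed from transcript TPM. Library totals on M21 were 32547454 and 30559015 expected counts, with spike-ins at 3.31% and 4.25%.

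Expected counts were rounded for edgeR 4.0.16 (TMM, default low-count filter, 18575 genes), which gave a common coefficient of variation of 8.58% between the pools. Ratios used a prior count of 0.5 and 50 or more mean counts for any count of genes. DESeq2 1.42.0 size factors were an alternative. The ratio step was tested on simulated data. Intervals are exact (Poisson for levels, Clopper-Pearson for ratios, 95%) and cover counting error only, as no molecular identifiers are mentioned; a count of 0 allows up to 3 counts. The genes, lists and tests were chosen with earlier results of these data known. Members were all named. Of other lists, the rule was to name the 4 highest and up to 3 under 1 TPM in both pools. Receptors and the convertases Pcsk1 and Pcsk2 were named beyond that rule for their ligands or role. Of the precursors under 1 TPM in both pools, Cck, Vip, Hcrt and Avp were named, which also goes beyond it. Drgx, of the ganglion list, matched no symbol. With 2 pools of 1 group, no gene was named for a like pattern. Other software was R 4.3.3, Python 3.11.15 with scipy 1.17.1, numpy 2.4.6 and pandas 2.3.3, and, for plots, matplotlib 3.10.9.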

Additional observations from a re-analysis of the deposited data

How the results depend on the processing

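The number of precursors at 1 TPM or more in both pools stayed within 1.5 times of 10 under all 6 alternatives (7 at a threshold of 10 TPM, 8 at 5 TPM). Of protein-coding genes, 42.4% reached 10 TPM in both pools, and their share at 5 TPM was not computed. Of 40 alternative levels, 5 moved by more than 1 SD: with TPM over genes alone Penk was at 109.6, Adcyap1 at 17.97 and Nts at 1.18 TPM, and with M4 Adcyap1 was at 13.2 and Nts at 1.20 TPM. With a single pool, levels ranged from 1.00 (Nts) to 103 TPM (Penk). Of 70 alternative ratios, 8 left the counting interval, all with spike-in scaling: Npy 0.19, Sst 0.27, Penk -0.54, Tac1 0.10, Cartpt -0.68, Adcyap1 -0.33, Pdyn -0.84 and Calca 0.082. None of the ratios whose interval excludes 0 changed sign. With spike-in scaling only Gal and Nts, which have the widest intervals, stayed inside. The DESeq2, total-count and unfiltered TMM scale factors of pool 2 over pool 1 were 0.929, 0.930 and 0.927, against 0.929 for TMM. Those settings could therefore hardly move a ratio. The count of precursors past the fold limit was 0, and 1 at 1.5-fold. Of 40 alternative shares, 4 moved, all by expected counts: the complete Penk transcript 86.0%, gamma Tac1 30.4%, long Cartpt 53.5% and the CGRP message 56.0%. Leaving out a pool leaves no ratio. No paired analysis was possible because the series holds 1 group. Depth limits Nts, Gal and the minor Calca models most.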
